A study of Mus musculus with 6 samples.

Results

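The small proline-rich (Sprr) genes were followed as 10 named members, Sprr1a, Sprr1b, Sprr2a1, Sprr2a2, Sprr2a3, Sprr2b, Sprr2d, Sprr2e, Sprr2h and Sprr3, in RNA from the stomach corpus of mice. All 10 had a row among the 18708 rows of the deposited expression table. The members were chosen by gene name and with the R122C against WT difference of these libraries already known. Their values in that contrast are therefore given as a description, with no test reported. The tested mice carried RUNX3 R122C, a substitution of cysteine for arginine in the transcription factor RUNX3, and the controls were WT. There were 3 mice in each group, all C57BL/6 and 6 months old, with 1 mouse per library. No other allele or agent is named for either group, and the labels give neither zygosity nor sex. The study's title ties the mutation to expansion of isthmus stem cells, the dividing cells of the corpus gland, and to their impaired differentiation.

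Small proline-rich proteins are precursors of the cornified envelope, the cross-linked protein shell that replaces the membrane of terminally differentiated squamous cells. Transglutaminases join them to each other and to loricrin and involucrin through glutamine and lysine residues at their ends, while the proline-rich repeats in the middle act as flexible bridges. Their genes lie together in the epidermal differentiation complex of chromosome 3. In the mouse stomach, stratified squamous epithelium lines the forestomach, whereas the corpus is lined by glandular epithelium. Members of the family, Sprr2a above all, are also made by simple epithelia under stress or infection, and SPRR2A has been described as an antibacterial protein of the mouse intestine.

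Expression was given as FPKM, the fragments assigned to a gene scaled by its length and by the size of the library. The libraries' FPKM sums lay between 581276 and 716992. The spacing of low values gave an estimated 32150000 to 43700000 fragments for R122C 3 and the 3 WT libraries, and no depth could be determined for R122C 1 and R122C 2. Runx3 itself was at 0.24, 0.34 and 0.95 FPKM in the R122C libraries, against 0.34, 0.12 and 0.20 FPKM in the WT libraries, and a point substitution need not change its level, so it does not check the labels. The 10 corpus gland markers examined were present in every library, the lowest being Muc5ac (pit cell mucin) at 285.1, 187.7 and 148.9 FPKM in the R122C libraries and Muc6 (neck cell mucin) at 49.1, 11.61 and 60.88 FPKM in the WT libraries.

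One library stood apart in its squamous markers. Summed over 13 markers of stratified squamous epithelium, R122C 1, 2 and 3 held 56.1, 87.5 and 1114 FPKM, against 7.29, 26.3 and 15.7 FPKM in WT 1, 2 and 3. Outside R122C 3, Pitx1 and Krt13 were the largest of these markers, except in WT 1. There Pitx1 was largest, at 6.42 FPKM, followed by Dsc3 at 0.38 FPKM and Krt13 at 0.32 FPKM. No marker was at 0 in the R122C libraries or in WT 2. WT 1 had 6 at 0 (Krt5, Krt6a, Trp63, Dsg3, Ivl and Krtdap) and WT 3 had 3 (Trp63, Dsg3 and Ivl). Krt5, a keratin of the basal squamous layer, was at 1.70, 1.19 and 42.9 FPKM in the R122C libraries, against 0, 1.65 and 0.18 FPKM in the WT libraries. Trp63, the master regulator of stratified epithelia, reached 0.88 FPKM in R122C 3 and at most 0.07 FPKM in the other libraries. In bulk tissue, more cells of a type and more RNA per cell cannot be told apart. Differences between the groups are therefore also given without R122C 3.

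The family comprised 3 abundant copies of Sprr2a, a moderately expressed Sprr1a, and 6 scarce members. All 10 members were highest in R122C 3. In 4 members, Sprr2a1, Sprr2a2, Sprr2a3 and Sprr2b, every R122C library lay above every WT library, a pattern that 20.3% of the 11422 genes averaging 1 FPKM or more also had. The same 4 had both R122C 1 and R122C 2 above every WT library, against 33.2% of those genes. That average was reached by 9 members, all except Sprr1b, and by 6 members when R122C 3 was left out. The median log2(FPKM + 1) difference of the 10 members, R122C minus WT, was 2.01, beside 0.10 for all 11422 genes. Without R122C 3 it was 0.22. Because the members were chosen on this contrast, none of these medians is evidence about them.

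**Figure D1:**
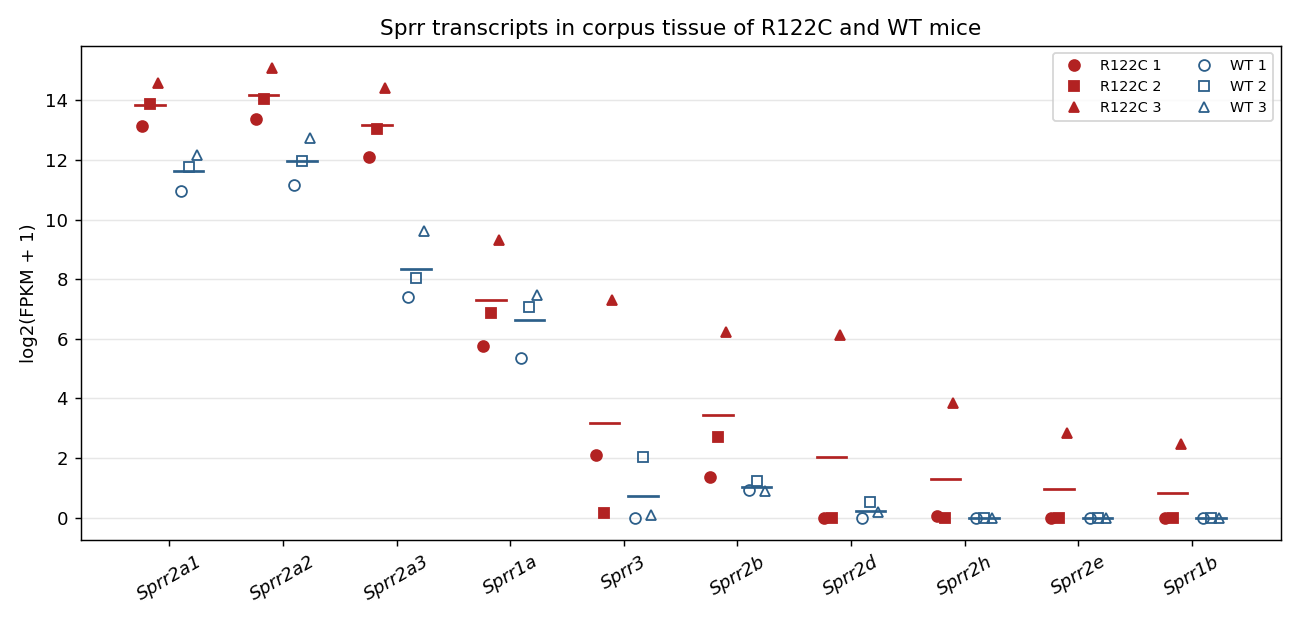
log2(FPKM + 1) of the 10 Sprr members, with R122C libraries (filled) left of WT libraries (open), 1 symbol per mouse (n = 3 each) and a bar at each group's mean of the log2 values. The Sprr2a copies and Sprr2b separate the groups, the remaining members do not, and R122C 3 (filled triangle) is the highest symbol of every gene.

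Sprr2a1, Sprr2a2 and Sprr2a3 were among the most abundant transcripts of the R122C corpus. Sprr2a1 was at 9037, 14984 and 24360 FPKM in R122C 1, 2 and 3, against 1977, 3446 and 4555 FPKM in WT 1, 2 and 3. The groups did not overlap, and the lowest R122C mouse was above the highest WT mouse. Its mean was 16127 ± 7725 FPKM in R122C and 3326 ± 1293 FPKM in WT (SD, n = 3 each), a ratio of 4.85, and the log2(FPKM + 1) difference was 2.24 ± 0.54 (SE), or 1.89 without R122C 3.

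Sprr2a2 was at 10752, 16849 and 34514 FPKM in the R122C libraries, against 2276, 4047 and 6912 FPKM in the WT libraries. Again no WT mouse reached the lowest R122C mouse. The mean was 20705 ± 12341 FPKM in R122C and 4412 ± 2339 FPKM in WT (SD, n = 3 each), a ratio of 4.69. Its log2(FPKM + 1) difference was 2.21 ± 0.67 (SE), or 1.75 without R122C 3. In all 6 libraries it was the most abundant member of the family.

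Sprr2a3 had the largest difference of the copies. It was at 4348, 8427 and 21836 FPKM in the R122C libraries, against 168.18, 262.04 and 792.92 FPKM in the WT libraries. It was scarce beside its copies in every WT mouse and of the same order as them in every R122C mouse. The mean was 11537 ± 9149 FPKM in R122C and 407.71 ± 336.88 FPKM in WT (SD, n = 3 each), a ratio of 28.3. On the log2(FPKM + 1) scale the difference was 4.82 ± 0.95 (SE), or 4.21 without R122C 3.

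Summed, the 3 copies came to 24137, 40260 and 80710 FPKM in R122C 1, 2 and 3, against 4421, 7755 and 12260 FPKM in WT 1, 2 and 3. That was 4.07%, 6.38% and 13.9% of all FPKM in the R122C libraries and 0.645%, 1.09% and 1.71% in the WT libraries. The ranges did not touch. The squamous marker sum, at 56.1, 87.5 and 1114 FPKM in the R122C libraries, was likewise above the 7.29, 26.3 and 15.7 FPKM of the WT libraries. Outside R122C 3 most of that sum was Pitx1 and Krt13, at 34.16 and 9.17 FPKM in R122C 1 and 32.33 and 49.64 FPKM in R122C 2. The part of the squamous markers in the Sprr2a levels was not tested. Sprr2a2 ranked 7, 6 and 2 among all genes by FPKM in the R122C libraries, against 15, 11 and 8 in the WT libraries. Sprr2a3 ranked 10, 9 and 4 in the R122C libraries, against 380, 262 and 64 in the WT libraries. The makeup of the sum differed too, since Sprr2a3 gave 18.0%, 20.9% and 27.1% of it in the R122C libraries, against 3.80%, 3.38% and 6.47% in the WT libraries. The ratio of Sprr2a1 to Sprr2a2 was similar in both groups, at 0.841, 0.889 and 0.706 in the R122C libraries, against 0.869, 0.852 and 0.659 in the WT libraries.

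**Figure D2:**
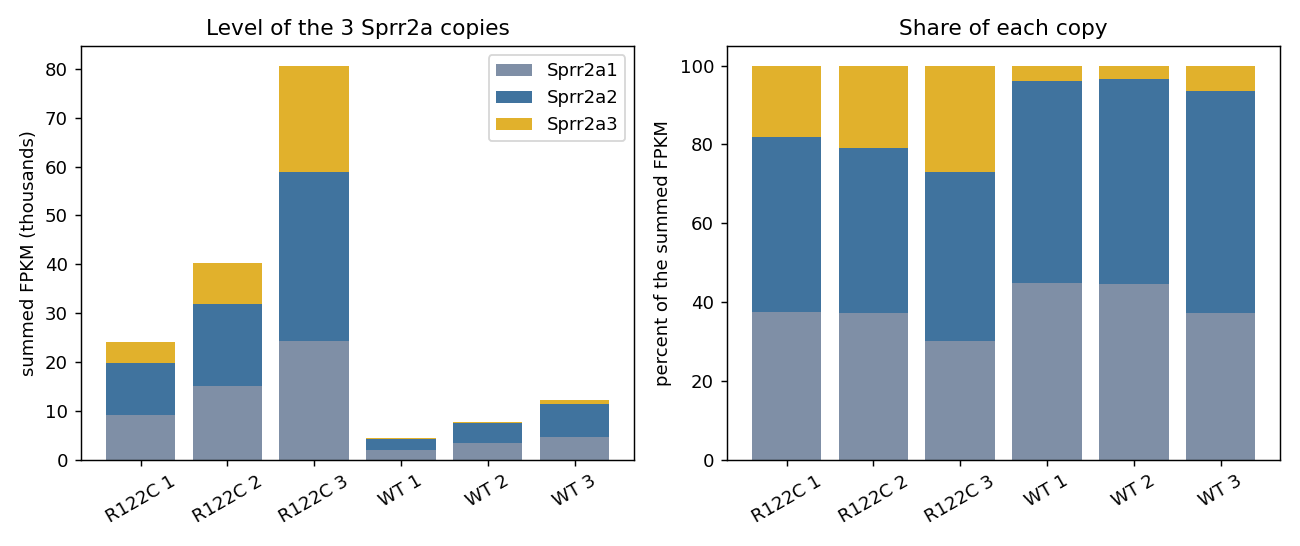
Stacked bars of the FPKM of Sprr2a1, Sprr2a2 and Sprr2a3 by library, on an axis of FPKM divided by 1000, and of the percent of their sum held by each copy, R122C left of WT, 1 bar per mouse. The sum is 24137 FPKM or more in each R122C library and 12260 FPKM or less in each WT library, and the Sprr2a3 share is 18.0% or more in R122C and 6.47% or less in WT.

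How far the copies can be separated depends on their sequences, and the values of single copies are uncertain for that reason. Their coding sequences, 252 bases in the GENCODE M21 transcripts, were identical in Sprr2a1 and Sprr2a2. Sprr2a3 differed from them by 3 substitutions, G63A, G159T and A192T, counted from 1 at the A of the start codon and with the Sprr2a1 base first. Each falls on the third base of a codon that begins with CC, which codes for proline whatever that base is, so the encoded proteins do not differ. The stretch from base 50 to base 204 is shown because it holds all 3 differences, which are in capitals.
Sprr2a1 and Sprr2a2: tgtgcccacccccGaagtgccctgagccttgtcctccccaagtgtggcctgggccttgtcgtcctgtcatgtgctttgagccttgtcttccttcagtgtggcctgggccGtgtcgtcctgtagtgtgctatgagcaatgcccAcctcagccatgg
Sprr2a3: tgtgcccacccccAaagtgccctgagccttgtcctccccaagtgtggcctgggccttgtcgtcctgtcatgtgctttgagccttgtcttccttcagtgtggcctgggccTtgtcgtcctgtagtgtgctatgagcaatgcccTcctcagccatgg

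Over the whole transcripts the overlap was larger between the first 2 copies than with the third. Of all windows of 100 bases in the Sprr2a1 transcript, 88.9% also occurred in Sprr2a2 and 34.7% in Sprr2a3. The short Sprr2a2 transcript of 722 bases shared 100% of its windows with Sprr2a1 and begins inside the first exon of Sprr2a1. The Sprr2a2 gene model, chr3:92215920-92256724, covers 5992 bases of the Sprr2a1 model, chr3:92215799-92221911 (both GRCm38, plus strand). The Sprr2a3 transcripts, at chr3:92285417-92291405, shared 36.3% of their windows with the other copies in the longer form and 16.6% in the shorter form. The remaining members shared at most 1.10% of their 100-base windows with any other Sprr gene. With windows of 50 bases the shares were larger, at 61.1% for the longer Sprr2a3 transcript, 13.7% for Sprr2b, all of it in common with Sprr2a1, and 10.2% for Sprr2e. The low Sprr2b values are therefore uncertain beside a copy as abundant as Sprr2a1. The sources used here do not say how fragments that match several genes were counted, nor which length the FPKM of Sprr2a2 rests on, whose transcripts measure 722 and 2867 bases.

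Sprr1a, a precursor also known from injured and stressed cells outside squamous epithelium, did not separate the groups. It was at 53.5, 114.91 and 637.69 FPKM in the R122C libraries, against 40.4, 133.38 and 178.04 FPKM in the WT libraries. R122C 1 and R122C 2 lay inside the WT range and R122C 3 above it. The log2(FPKM + 1) difference was 0.67 ± 1.23 (SE, n = 3 each), and it was -0.33 without R122C 3. Set against the sum of the Sprr2a copies, Sprr1a came to 0.222%, 0.285% and 0.790% in the R122C libraries, against 0.914%, 1.72% and 1.45% in the WT libraries, so the ratio was lower in each R122C mouse than in each WT mouse.

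Sprr2b was low in the WT mice and high in a single R122C mouse. It was at 1.56, 5.57 and 74.23 FPKM in the R122C libraries, against 0.88, 1.34 and 0.86 FPKM in the WT libraries, the WT values standing for an estimated 30.1, 40.7 and 21.7 fragments. The groups did not overlap, although R122C 1 exceeded WT 2 by little. The log2(FPKM + 1) difference was 2.42 ± 1.46 (SE, n = 3 each) and 1.03 without R122C 3.

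Sprr3, which in squamous mucosa is a marker of the oesophagus and other internal linings, was at 3.32, 0.11 and 156.02 FPKM in the R122C libraries, against 0, 3.12 and 0.06 FPKM in the WT libraries. R122C 1 and WT 2 had nearly equal values, and the groups overlapped. The log2(FPKM + 1) difference was 2.48 ± 2.23 (SE, n = 3 each) and 0.42 without R122C 3. Sprr2d was listed at 0 in R122C 1 and R122C 2 and was at 69.31 FPKM in R122C 3, against 0, 0.42 and 0.14 FPKM in the WT libraries. Its values in WT 2 and WT 3 correspond to about 11.1 and 3.10 fragments. The log2(FPKM + 1) difference was 1.81 ± 2.05 (SE, n = 3 each) and -0.23 without R122C 3.

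The other 3 scarce members were seen almost solely in R122C 3. Sprr2h was at 0.03, 0 and 13.51 FPKM in the R122C libraries and listed at 0 in each WT library. Sprr2e was at 6.10 FPKM and Sprr1b at 4.53 FPKM in R122C 3, and both were listed at 0 in the other 5 libraries. Without R122C 3 the log2(FPKM + 1) difference, R122C minus WT, was 0.02 for Sprr2h and 0 for Sprr2e and Sprr1b, against 1.30, 0.94 and 0.82 with all libraries. In R122C 3 these 2 values stand for an estimated 129.1 and 122.9 fragments, and 3 fragments, the limit that a count of 0 allows, would have given Sprr2e 0.106 to 0.144 FPKM in the WT libraries. Summed, the 6 scarce members came to 4.91, 5.68 and 323.7 FPKM in the R122C libraries, against 0.88, 4.88 and 1.06 FPKM in the WT libraries. The sum stood far higher in R122C 3 than elsewhere, and the squamous marker sum was also highest in that library. The part of squamous epithelium in these values was not tested.

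**Figure D3:**
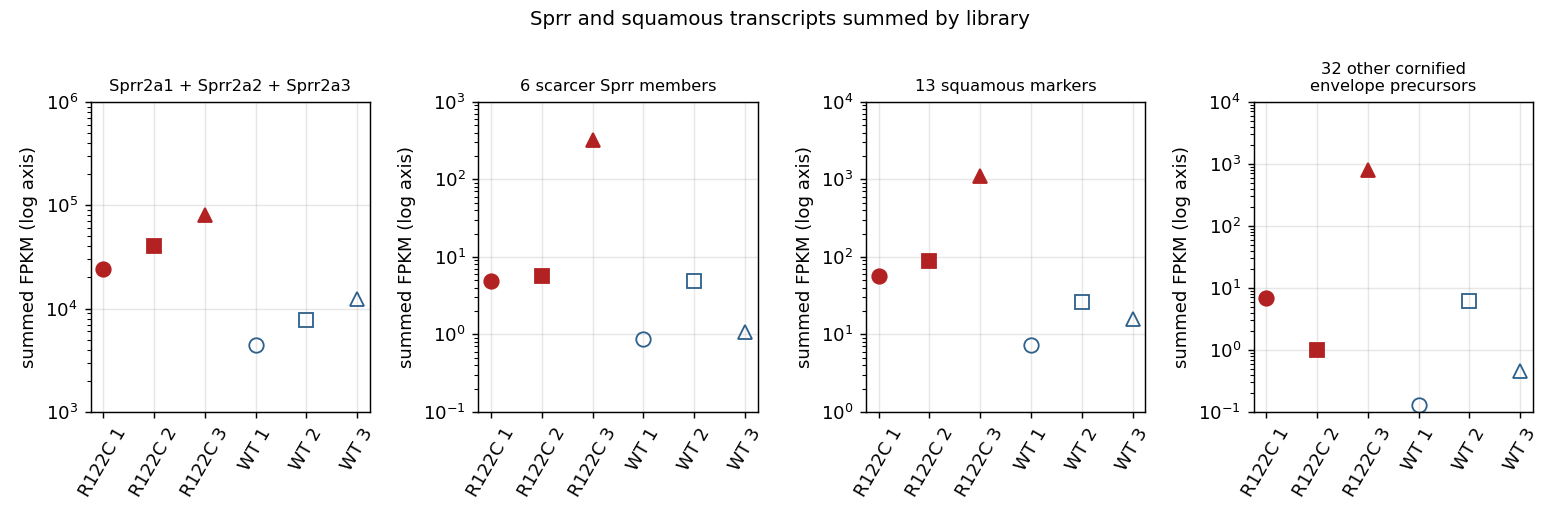
Summed FPKM by library, on log axes that differ between panels, for the Sprr2a copies, the 6 scarce Sprr members, the 13 squamous markers and the 32 other cornified envelope precursors, R122C (filled) left of WT (open), 1 symbol per mouse. R122C 3 is highest in each panel, at 323.7 FPKM for the scarce members, 1114 FPKM for the markers and 803.7 FPKM for the precursors.

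The proline-rich repeats differ between members. Proline codons made up 31.3% of the 83 codons of each Sprr2a copy and 39.5% to 42.6% of those of Sprr2b, Sprr2d, Sprr2e and Sprr2h. They made up 31.9% in Sprr1a, 30.7% in Sprr1b and 20.6% in Sprr3. The Sprr2 genes were read for repeats of 27 bases and the others for repeats of 24 bases, in exact copies only. No such exact repeat was found in the Sprr2a copies, Sprr2d or Sprr2e. The most copies were in Sprr1b, whose unit occurred 6 times, and in Sprr2h, whose unit occurred 5 times. These are shown because both genes were listed at 0 in every WT library.
Sprr1b: cctgagccctgccaccccaaggct
Sprr2h: tgcccagagccttgtcctcccccaaag
Identity to the Sprr2a1 coding sequence was 74.7% for Sprr2b, 69.6% for Sprr2d, 68.3% for Sprr2e and 61.8% for Sprr2h. It was 42.2% for Sprr1a, 39.1% for Sprr1b and 28.5% for Sprr3, and Sprr1a and Sprr1b were 78.4% identical to each other.

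The members lie on chromosome 3 between bases 92215799 and 92485895 (GRCm38), a span of 270.1 kb, with the Sprr2 genes on the plus strand and Sprr1a, Sprr1b and Sprr3 on the minus strand. The Sprr2a copies stand at the end nearest the centromere, and Sprr1a, at chr3:92483952-92485895, stands at the other end. Between them lie the scarce members and 5 other Sprr rows of the table, Sprr2f, Sprr2g, Sprr2i, Sprr2j-ps and Sprr2k. Sprr2f was at 1.42, 7.76 and 25.30 FPKM in the R122C libraries, against 0.91, 6.55 and 6.05 FPKM in the WT libraries, and its groups overlapped. Sprr2i was at 0, 0.08 and 17.94 FPKM in the R122C libraries and listed at 0 in each WT library. Sprr2g reached 10.18, Sprr2j-ps 7.81 and Sprr2k 0.94 FPKM in R122C 3, with no other library above 0.24 FPKM. All 15 Sprr rows were highest in R122C 3. In the limma fit over 11422 genes (Benjamini-Hochberg, threshold 0.05), in which 5.27% were called higher and 0.832% lower, none of the 4 tested among these 5 was called in either direction, and none had an unadjusted p under 0.05. Their median log2 fold change was 1.07. Without R122C 3, 1 of the 4 still averaged 1 FPKM, Sprr2f, with a fold change of -0.02 on the log2 scale.

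Promoter windows from RefSeq (GRCm38.p6), 250 bases before to 50 bases after each annotated start, were found for all 10 members. From the RefSeq start to the first GENCODE start it was -34727 bases for Sprr2a2, 113 for Sprr2a3, -85 for Sprr2b and -36 for Sprr2a1. The other members had -14 to 0 bases. The Sprr2a2 window thus lies inside the GENCODE model of that gene, and distances to the start depend on the annotation. The letters upstream of Sprr2a1 and Sprr2a2 were identical, and those of Sprr2a3 were the same sequence with its start placed 28 bases away, 0 of 272 aligned bases differing. Both strands were searched for the AP-1 motif TGANTCA, bound by Fos and Jun dimers, the ETS motif AGGAAG, the RUNX motif TGTGGT, the NRF2 motif TGACNNNGC, the interferon response motif GAAANNGAA and the STAT motif, TTC and GAA set 4 bases apart. The octamer motif ATTTGCAT, bound by POU factors, was added after the sequences were seen. Shares are of 17432 promoter windows of the same length.

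The copies of Sprr2a shared the STAT, interferon response and ETS motifs, present in 5.61%, 7.42% and 34.1% of all promoter windows, and had neither the AP-1 nor the octamer motif in these windows. The AP-1 motif was in Sprr1a (2 matches), Sprr1b, Sprr2b, Sprr2d, Sprr2e and Sprr2h, against 6.10% of all promoter windows. The octamer was in Sprr2b, Sprr2d, Sprr2e and Sprr2h, 108 or 109 bases before the RefSeq start, against 1.41%. The ETS motif was also in Sprr3. The RUNX motif was in Sprr1b and Sprr2b, against 13.6% of all promoter windows. The NRF2 motif was in Sprr1a, where it overlaps an AP-1 match, against 13.9%. The Sprr2a copies are near-identical. The windows of Sprr2d and Sprr2e were 88.9% identical, and the other pairs among Sprr2b, Sprr2d, Sprr2e and Sprr2h were 62.45% to 65% identical. Matches within either set are therefore not separate observations, and a match is not evidence of binding.

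The 210 bases before the annotated start are shown for 6 members that stand for the abundant copies, Sprr1a and the scarce genes, with matches to the STAT, interferon response, AP-1 and octamer motifs in capitals. The letters run 5′ to 3′ on the strand of the gene, and the Sprr2a1 sequence equals that of Sprr2a2.
Sprr2a2, chr3:92250437-92250646, plus strand: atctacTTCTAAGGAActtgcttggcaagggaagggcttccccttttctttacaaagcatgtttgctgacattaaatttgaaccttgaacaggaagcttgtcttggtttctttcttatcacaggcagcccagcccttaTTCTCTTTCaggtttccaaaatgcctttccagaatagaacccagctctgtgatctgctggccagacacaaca
Sprr2a3, chr3:92285094-92285303, plus strand: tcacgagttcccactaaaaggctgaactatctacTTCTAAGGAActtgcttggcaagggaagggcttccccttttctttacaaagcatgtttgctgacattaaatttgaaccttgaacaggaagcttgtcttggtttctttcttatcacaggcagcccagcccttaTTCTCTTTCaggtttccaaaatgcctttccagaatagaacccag
Sprr2d, chr3:92338930-92339139, plus strand: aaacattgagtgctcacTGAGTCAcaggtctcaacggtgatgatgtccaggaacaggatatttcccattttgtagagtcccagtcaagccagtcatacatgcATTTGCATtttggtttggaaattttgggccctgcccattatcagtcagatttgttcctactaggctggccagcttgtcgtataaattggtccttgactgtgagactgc
Sprr2h, chr3:92385475-92385684, plus strand: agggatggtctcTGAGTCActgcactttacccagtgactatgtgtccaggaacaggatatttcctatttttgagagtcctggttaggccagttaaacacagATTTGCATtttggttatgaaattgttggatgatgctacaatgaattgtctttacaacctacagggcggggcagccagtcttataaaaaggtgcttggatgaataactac
Sprr1a, chr3:92485882-92486091, minus strand: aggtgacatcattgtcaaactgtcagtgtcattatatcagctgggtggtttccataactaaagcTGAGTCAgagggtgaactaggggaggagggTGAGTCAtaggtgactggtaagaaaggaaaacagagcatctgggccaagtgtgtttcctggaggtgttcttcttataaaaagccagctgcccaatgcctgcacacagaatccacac
Sprr1b, chr3:92438780-92438989, minus strand: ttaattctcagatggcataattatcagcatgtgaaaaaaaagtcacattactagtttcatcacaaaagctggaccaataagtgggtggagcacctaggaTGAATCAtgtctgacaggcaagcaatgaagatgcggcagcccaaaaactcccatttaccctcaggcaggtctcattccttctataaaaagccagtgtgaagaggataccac

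Within 1 Mb of the members 33 other genes had a row, nearly all of them of the late cornified envelope (Lce) family or other envelope genes, and 24 were tested. Of all 33, 32 were highest in R122C 3, and Tchh was at 0.06 FPKM in both R122C 3 and WT 1. The 24 averaged 1 FPKM through R122C 3 alone, so neither their highest library nor their test is informative beyond that. Limma called none of them in either direction, and none had an unadjusted p under 0.05. Summed over all 33, the neighbours came to 6.12, 0.80 and 675.0 FPKM in the R122C libraries, against 0.13, 4.34 and 0.20 FPKM in the WT libraries. Rptn (repetin), the gene of smallest p, was at 0.80, 0.07 and 19.36 FPKM in the R122C libraries, against 0.01, 0.27 and 0.04 FPKM in the WT libraries.

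**Figure D4:**
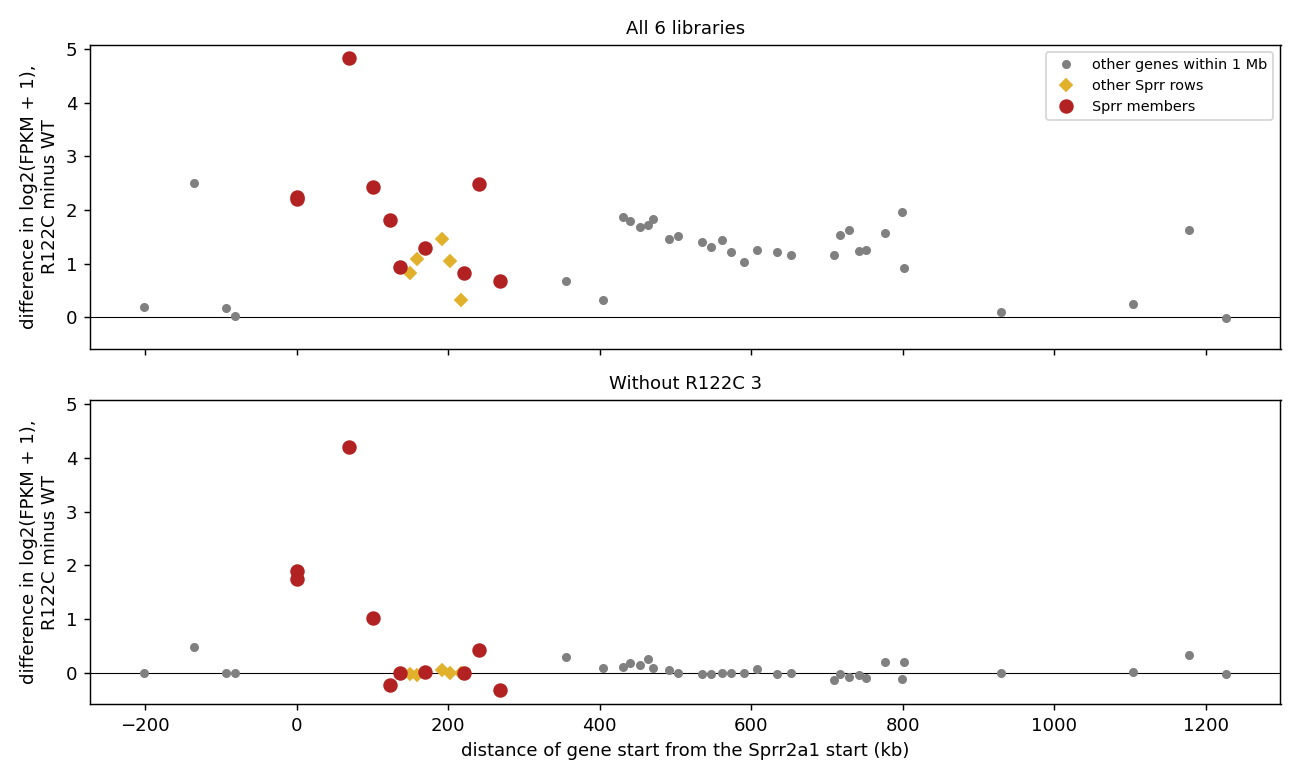
Difference in log2(FPKM + 1), R122C minus WT, of the 15 Sprr rows and 33 neighbouring genes against the distance in kb of each gene's lowest coordinate from that of Sprr2a1, with all 6 libraries (upper panel) and without R122C 3 (lower panel). The Sprr2a copies are at 1.75 or more in both panels, whereas the other Sprr genes, Sprr2b apart, are at 0.42 or less in the lower one.

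Of 32 other cornified envelope precursors with a row, 31 were highest in R122C 3, Tchh again excepted. The 24 tested all averaged 1 FPKM through R122C 3 alone, and limma called none in either direction, none having an unadjusted p under 0.05. Summed over the whole list, the precursors were at 6.95, 1.01 and 803.7 FPKM in the R122C libraries, against 0.13, 6.08 and 0.45 FPKM in the WT libraries. Of 17 cross-linking and anchoring genes, 11 were highest in R122C 3. Among them were the transglutaminases Tgm1, Tgm3 and Tgm5, which cross-link the envelope and reached 4.87, 2.21 and 1.28 FPKM there, with averages under 1 FPKM. Of the 8 tested, all plakin or desmosomal genes, 2 were highest in R122C 3. Limma called none of the 8 in either direction, with 0 higher and 3 lower at an unadjusted p under 0.05. Dsp (desmoplakin) was at 53.04, 29.41 and 32.74 FPKM in the R122C libraries, against 59.19, 67.27 and 63.81 FPKM in the WT libraries, and it was called lower when R122C 1 was left out.

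Among 12 squamous keratins, Krt13, a keratin of the upper layers of internal squamous linings, was the single gene called higher. It was at 9.17, 49.64 and 300.9 FPKM in the R122C libraries, against 0.32, 3.77 and 1.21 FPKM in the WT libraries. Krt14 was at 0.24, 0.97 and 63.3 FPKM in the R122C libraries, against 0.02, 1.18 and 0.14 FPKM in the WT libraries, and Krt4 was at 0.40, 0.28 and 83.41 FPKM in the R122C libraries, against 0.04, 0.70 and 0.06 FPKM in the WT libraries. All 12 were highest in R122C 3. Krt13 and Krt78 were above every WT library in both R122C 1 and R122C 2, whereas the basal keratins Krt5 and Krt14 were not. Krt78 was at 5.39, 4.42 and 11.31 FPKM in the R122C libraries, against 1.09, 3.11 and 1.90 FPKM in the WT libraries, and was not called. The call of Krt13 was lost without any one of R122C 2, WT 1, WT 2 and WT 3. Its adjusted p was then 0.0915 to 0.122, against 0.043 with all libraries (limma, Benjamini-Hochberg).

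Of 13 secreted and cytosolic squamous proteins tested, 1 was called higher and none lower (6 and 0 at an unadjusted p under 0.05). It was Anxa8, a calcium-binding annexin, at 12.92, 31.35 and 55.23 FPKM in the R122C libraries, against 0.05, 0.91 and 0.33 FPKM in the WT libraries. The count was 2 without R122C 1. Of 7 squamous transcription factors tested, Pitx1 and Hopx were called higher and none lower. Pitx1, a homeobox factor, was at 34.16, 32.33 and 61.41 FPKM in the R122C libraries, against 6.42, 12.65 and 13.37 FPKM in the WT libraries. Hopx, a homeodomain protein without DNA binding of its own, was at 7.33, 2.88 and 9.48 FPKM in the R122C libraries, against 0.76, 0.81 and 0.55 FPKM in the WT libraries. Without WT 2 the count of factors called was 1.

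Factors and signals known to act on Sprr genes were read from lists of their own. Among 11 AP-1 and ETS factors tested, Atf3, a stress-induced AP-1 family member, and Ehf, an epithelial ETS factor, were called higher and none lower. Atf3 was at 21.11, 40.87 and 22.38 FPKM in the R122C libraries, against 6.53, 13.33 and 10.05 FPKM in the WT libraries. Ehf was at 24.78, 16.23 and 21.80 FPKM in the R122C libraries, against 10.16, 6.81 and 5.81 FPKM in the WT libraries. R122C 3 was not the highest library in either gene, whereas 5 of the 12 genes of this list with a row were highest there. Without one library at a time the count of factors called higher was between 0 (without WT 2 or WT 3) and 3 (without R122C 1), and it was 1 without R122C 2 or WT 1.

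The NRF2 targets, genes of the oxidative stress response, moved in both directions. Of 11 tested, G6pdx was called higher and Nqo1 lower. G6pdx, which makes NADPH, was at 102.0, 115.9 and 161.7 FPKM in the R122C libraries, against 41.69, 62.59 and 69.26 FPKM in the WT libraries. Its call was lost without any one of the libraries other than R122C 1, and 2 targets were called higher without R122C 1. Nqo1, a quinone reductase, was at 163.2, 77.46 and 98.71 FPKM in the R122C libraries, against 412.9, 715.9 and 419.3 FPKM in the WT libraries, and it was called without each library in turn.

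The type 2 cytokine response, to which intestinal Sprr2a belongs in the mouse, had 8 of 13 tested genes higher at an unadjusted p under 0.05 (limma). Of the 13, 5 were called higher and none lower, against 5.27% and 0.832% of all genes tested. They were Il4ra, a receptor chain for interleukins 4 and 13, the chitinase-like genes Chil3 and Chil4, Clca1, a goblet cell protein, and Socs1, a brake on cytokine signalling. Chil4 was at 1399, 940.9 and 10066 FPKM in the R122C libraries, against 1.44, 6.77 and 12.19 FPKM in the WT libraries. Clca1 was at 234.9, 272.1 and 733.1 FPKM in the R122C libraries, against 3.22, 24.02 and 48.85 FPKM in the WT libraries. Socs1 was at 4.57, 14.23 and 60.71 FPKM in the R122C libraries, against 0.78, 0.49 and 0.85 FPKM in the WT libraries. All of these had R122C 1 and R122C 2 above the highest WT library, as 33.2% of all genes tested had. They had been called higher in the same contrast, so that pattern is not a separate observation. The count of called genes was 1 without WT 2, 2 without R122C 2 and 3 without WT 3, and 7 without R122C 1.

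Of 6 STAT3 response genes tested, Osmr, the oncostatin M receptor, was called higher and none was lower. It was at 2.14, 4.92 and 5.32 FPKM in the R122C libraries, against 0.67, 0.56 and 0.38 FPKM in the WT libraries. The count was 0 without R122C 2, WT 2 or WT 3, and 3 without R122C 1. Of 17 injury-associated epithelial genes tested, Clu, Anxa1 and Krt7 were called higher and none lower. Krt7, a simple epithelial keratin, was at 53.44, 58.37 and 238.9 FPKM in the R122C libraries, against 6.59, 17.23 and 9.38 FPKM in the WT libraries. The count was 0 without WT 1 or WT 3, 1 without R122C 2 or WT 2, and 7 without R122C 1. The call of Anxa1, at an adjusted p of 0.0471 with all libraries, was lost without any 1 library, at 0.0562 to 0.119 (limma, Benjamini-Hochberg).

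The glandular markers were read in the same bulk libraries, and which cells held the Sprr2a transcripts was not tested. Of 11 tested, Muc6 and Tff2, the mucin and trefoil factor of neck cells, were called higher and Muc5ac lower. Muc6 was at 1028, 596.3 and 537.0 FPKM in the R122C libraries, against 49.1, 11.61 and 60.88 FPKM in the WT libraries. Pgc (pepsinogen C) was at 12873, 24625 and 1537 FPKM in the R122C libraries, against 97962, 30427 and 54202 FPKM in the WT libraries. Atp4a, the catalytic subunit of the parietal cell proton pump, was at 2229, 1543 and 326.1 FPKM in the R122C libraries, against 3617, 1962 and 2431 FPKM in the WT libraries. R122C 3 was lowest for both Pgc and Atp4a and highest for every Sprr gene. Without WT 2 the count of markers called higher was 1.

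The medians of these lists stood beside a median log2 fold change of 0.10 over all 11422 genes. The squamous keratins had 1.97, the secreted and cytosolic squamous proteins 1.63, the envelope precursors 1.53 and the neighbours of the cluster 1.49. The type 2 cytokine response had 1.35, the injury-associated genes 1.14, the STAT3 response 0.66 and the squamous factors 0.65. The AP-1 and ETS factors had 0.34, the NRF2 targets 0.25, the cross-linking and anchoring genes -0.18 and the corpus markers -1.17. Without R122C 3, over the genes still averaging 1 FPKM, the median was 0.19 for all genes, 0.84 for 4 squamous keratins and 0.99 for 7 secreted and cytosolic proteins, and no precursor or neighbour was left. It was then 1.31 for the type 2 cytokine response, 0.79 for the injury-associated genes, 0.52 for the STAT3 response and 0.47 for the squamous factors. The remaining lists had 0.20 for the AP-1 and ETS factors, 0.21 for the NRF2 targets, -0.41 for cross-linking and anchoring and -0.48 for the corpus markers. Where none of a list was called lower, none was lower at an unadjusted p under 0.05 either, the cross-linking and anchoring genes excepted. Higher at that limma threshold were 9 of 17 injury-associated genes, 3 of 6 STAT3 response genes, 4 of 7 squamous factors and 2 of 12 keratins. The AP-1 and ETS factors had 4 of 11, the NRF2 targets 4 higher and 1 lower, and the corpus markers 2 higher and 4 lower. The share of all genes at an unadjusted p under 0.05 is not given here.

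The calls of Anxa8, Chil4, Muc6, Muc5ac and Nqo1 were kept under all 15 alternatives. With median-of-ratios scaling, limma's adjusted p was 0.0525 to 0.162 for Krt13, Pitx1, Atf3, G6pdx, Clca1, Socs1, Krt7, Clu and Anxa1. With no filter on low values those 9 genes and Hopx, Chil3 and Tff2 missed the threshold, at 0.0505 to 0.210. With quantile normalization Krt13, Pitx1, Atf3, G6pdx, Socs1, Osmr, Clu and Anxa1 missed it, at 0.0508 to 0.0919.

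Genes whose profile over the 6 libraries lay closest to each member were found by the root mean square (RMS) difference of log2(FPKM + 1) values, each gene centred on its own mean. The likeness is descriptive and rests on 6 libraries that also define the groups. Closest to Sprr2a1 were Slc16a3, a lactate transporter, at 0.15, Irgm2, an immunity-related GTPase, at 0.18, Samhd1, a dNTP hydrolase, at 0.20, Ube2l6, an ISG15-conjugating enzyme, at 0.23, and Urah at 0.24. Closest to Sprr2a2 were Urah, Slc16a3, Irgm2, Samhd1 and Ly6e, at 0.19 to 0.33. Slc16a3 was at 8.70, 18.49 and 33.75 FPKM in the R122C libraries, against 1.62, 2.90 and 4.10 FPKM in the WT libraries. For Sprr2a3 the nearest genes, Clca1, Apol9b, Ifit1, H2-Q7 and Reg3g, were farther away, at 0.66 to 0.71.

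The scarce members had other neighbours in profile. Closest to Sprr2b were Ubd, a ubiquitin-like protein, Ido1, a tryptophan-degrading enzyme, Nccrp1, Krt16 and Krt6a, at 0.26 to 0.53. Closest to Sprr2d were Crct1, Krt4, Asprv1, Lce1a1 and BC100530, at 0.18 to 0.32. Closest to Sprr2h were Lce3d, Lce1h, Lce1l, Lce1j and Kprp, at 0.053 to 0.091. Closest to Sprr3 were Krt1, Lor (loricrin), Cnfn, Dmkn and Krtdap, at 0.22 to 0.54. A small difference is easily reached by genes near 0 in 5 libraries. Sprr1a had the more distant Sap25, Ltc4s, Ltf, Trex2 and Ly6g6c, at 0.53 to 0.59.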

How the data were processed

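RNA of stomach corpus was profiled in 3 R122C and 3 WT mice, 1 mouse per library, each an animal of its own. RNA was column-purified with DNase digestion, and a company made and sequenced the libraries, per the labels' protocols. The submitters' processing notes name STAR, featureCounts and mm10. The sources used here give no settings, strandedness or gene lengths. The deposited table holds FPKM values computed by the authors.

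Values were used as log2(FPKM + 1), which understates changes of low genes. The 11422 genes averaging 1 FPKM or more were tested with limma 3.58.1 in R 4.3.3 (trended empirical Bayes, two-sided, Benjamini-Hochberg over all genes tested, threshold 0.05, no covariate), checked on simulated data. The 9 Sprr members reaching that average were part of this fit, its correction and its counts over all genes, but no test of a member is reported. The members, the 12 lists and the rules were chosen with earlier results of these data known. Named genes were all Sprr rows, Runx3, up to 4 called genes of each list with the largest change or else its gene of smallest p, fixed squamous and corpus markers, and the 5 nearest profiles of members averaging 1 FPKM or more, which leaves out Sprr1b (those of Sprr2e are not reported here). Il4ra was named after its values were seen.

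Fragments were estimated from the spacing of low FPKM values of genes with 1 transcript. These estimates cover counting only. Coding sequences and positions came from GENCODE M21 (GRCm38), promoters from RefSeq. No protein sequences were used here, so codon shares replace the planned residue shares. Alternatives were other pseudocounts, filters, scalings, eBayes without trend, a replicate block and leaving out each library. The same-numbered R122C and WT libraries were not treated as pairs.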

Additional observations from a re-analysis of the deposited data

How the results depend on the processing

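The log2(FPKM + 1) difference of the Sprr2a copies and Sprr2b stayed above 0 under all 15 alternatives, at 1.89 to 2.60 for Sprr2a1, 1.75 to 2.60 for Sprr2a2, 4.21 to 5.46 for Sprr2a3 and 1.03 to 3.46 for Sprr2b. Sprr1a ranged between -0.33 (without R122C 3) and 1.45, and Sprr3 between 0.42 and 3.99. Over all genes, 602 were called higher and 95 lower. These counts were 1260 higher with a common FPKM total, 392 higher and 57 lower with a mean of at least 5 FPKM, 192 lower with median-of-ratios scaling and 248 lower with quantile normalization. Leaving out 1 library gave 246 (without WT 2) to 581 higher and 14 (without R122C 2) to 195 (without R122C 1) lower. The causes were not tested. The median log2 fold change of all genes was 0.10, and it was 0.29 with a common total and -0.06 with quantile normalization. Depth, undetermined in R122C 1 and R122C 2, limits what the 0 values of scarce members show.

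With a replicate block, 1119 genes were called higher and 259 lower. The labels do not say that equal numbers mark a shared litter or batch, and the deviations of same-numbered libraries from their group means correlated at 0.467, 0.017 and 0.365. R122C 2 correlated best with WT 1, so not every library was closest to its own number.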
